A study of Homo sapiens with 16 samples.

Results

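The 9 genes described here are the HOXA genes HOXA5, HOXA7, HOXA9 and HOXA10, the HOXB genes HOXB2, HOXB3 and HOXB4, and the cofactor genes MEIS1 and PBX3. They were chosen by gene symbol, as members of the homeobox program that blood stem cells and many acute myeloid leukemias share, and are 9 of the 60623 genes counted in each library. RNA-Seq was performed in MUTZ-3, a human acute myeloid leukemia (AML) line with an inversion of chromosome 3 that drives EVI1 expression. In the PARP inhibitor (PARPi) experiment, olaparib was used at 10 µM and talazoparib at 1 µM, each beside a DMSO control at 12, 24 and 48 h, and untreated cells were taken at 0 h. For the knockdown, cells were transduced with lentiviral pLKO.1 vectors carrying a non-targeting control (NTC) or 1 of 2 short hairpin RNAs against EVI1 (shEVI1-2531 and shEVI1-2532), were selected with puromycin and were harvested at day 3 or day 6. All cells were grown with GM-CSF and with medium conditioned by a second cell line. Each of the 16 conditions is 1 library of a single cell line, so no value has a replicate of its own and every p-value below rests on how far the hours, the days or the inhibitors departed from a common pattern.

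HOX genes encode transcription factors that bind DNA through the homeodomain, and they lie in clusters whose gene order follows the order of their activity along the body axis. In blood, the HOXA and HOXB genes are active in stem and progenitor cells and are switched off as cells mature. MEIS1 and PBX3 belong to the TALE class of homeobox genes, and their proteins bind DNA together with HOX proteins. HOXA9 with MEIS1 is a well known pair of leukemia drivers, and PBX3 can act with both.

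The stretch of the homeobox that codes for the DNA-recognition helix shows how HOX and TALE members are related, and is given here for 5 members as the 36 coding bases around the conserved tryptophan codon in the longest matching GENCODE 29 transcript. Capitals mark the 6 codons from that tryptophan to the arginine codon that ends the conserved core.
HOXA5: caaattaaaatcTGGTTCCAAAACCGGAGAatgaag
HOXA10: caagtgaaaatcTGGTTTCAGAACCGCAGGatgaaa
HOXB2: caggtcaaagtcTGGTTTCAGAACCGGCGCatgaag
MEIS1: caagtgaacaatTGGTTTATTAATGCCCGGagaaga
PBX3: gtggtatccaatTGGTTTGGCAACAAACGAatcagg

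MEIS1 and PBX3 differ from the 3 HOX genes shown also within the core. Over the whole homeobox of 180 bases, the 7 HOX members shared between 57.2% (HOXA10 and HOXB3) and 81.1% (HOXA7 and HOXB4) of their bases. The reads were 100 bases long. Of all windows of 100 bases in the annotated transcripts, none of HOXA5, HOXA7, HOXB2, MEIS1 or PBX3 occurred in a transcript of another gene, so the homeobox itself did not make these members' reads interchangeable. Another gene held 9.98% of the windows of HOXA9 and 6.95% of those of HOXA10, in both cases the readthrough gene AC004080.3, which has no counts in any library. That absence does not show how reads from the shared windows were assigned. Windows shared with HOXB6 made up 4.27% of HOXB3, and windows shared with AC103702.1 and MIR10A made up 10.5% of HOXB4.

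Promoter sequences from RefSeq (GRCh38.p14) were at hand for 5 of the 9 members (MEIS1, HOXA7, HOXA9, HOXA10 with 2 starts, and PBX3), and HOXA5, HOXB2, HOXB3 and HOXB4 have no entry. Shown are the 250 bases before the start of MEIS1 (chr2:66434875-66435124, plus strand) and of HOXA9 (chr7:27165538-27165787, minus strand), the genes of the leukemia pair. Capitals mark the CCAAT box and, in MEIS1, a match to the RUNX motif.
MEIS1: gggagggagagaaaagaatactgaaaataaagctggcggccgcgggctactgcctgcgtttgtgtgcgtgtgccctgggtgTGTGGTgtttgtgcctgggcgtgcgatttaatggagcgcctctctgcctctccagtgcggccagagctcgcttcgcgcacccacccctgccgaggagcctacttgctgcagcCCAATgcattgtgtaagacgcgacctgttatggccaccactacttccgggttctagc
HOXA9: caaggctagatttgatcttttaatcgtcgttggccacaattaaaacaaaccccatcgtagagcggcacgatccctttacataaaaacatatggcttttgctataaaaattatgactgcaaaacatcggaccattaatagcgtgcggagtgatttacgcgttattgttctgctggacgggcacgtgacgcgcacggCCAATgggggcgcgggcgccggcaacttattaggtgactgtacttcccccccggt

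In these 250 bases, on either strand, CCAAT occurred in 5 of the 6 member promoters (all but PBX3) and in 32.0% of all 35116 promoters. TGTGGT, the RUNX motif, occurred in MEIS1 alone and in 11.0% of all promoters. TGACAG, the MEIS motif, occurred in PBX3 alone and in 13.03% of all promoters. The HOX-PBX motif TGATNNAT (6.47% of all promoters) and the EVI1 motifs AGATAA (9.17%) and GATGAG (10.1%) had no match in the 6 windows. None of these motifs overlapped another in the members' windows, and the CCAAT box was added to the search after matches had been seen.

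In GRCh38, as listed in the files, the HOXA members lie on the minus strand of chromosome 7: HOXA5 (ENSG00000106004) at chr7:27141052-27143681, HOXA7 (ENSG00000122592) at chr7:27153716-27157936, HOXA9 (ENSG00000078399) at chr7:27162438-27175180 and HOXA10 (ENSG00000253293) at chr7:27170592-27180261. The HOXB members lie on the minus strand of chromosome 17: HOXB2 (ENSG00000173917) at chr17:48540894-48544989, HOXB3 (ENSG00000120093) at chr17:48548870-48604912 and HOXB4 (ENSG00000182742), whose span falls inside that of HOXB3, at chr17:48575507-48578350. MEIS1 (ENSG00000143995) lies at chr2:66433452-66573869 and PBX3 (ENSG00000167081) at chr9:125747345-125967377, both on the plus strand. Of the 9 spans, only that of PBX3 meets no other gene. By the GENCODE 29 exons, 15.9% of the exonic bases of HOXA9, 9.93% of those of HOXA10, 17.1% of those of HOXB4 and 7.94% of those of HOXB3 are shared with exons on the same strand, and 62.5% of the exonic bases of HOXA7 lie opposite exons of the other strand. The sources used here do not say if reads were counted by strand. HOXA7 and its antisense neighbour HOXA-AS3 have separate counts, but how reads were assigned where they overlap is not known.

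Total counts ranged from 55999673 to 72681943 per library with PARPi and from 95523038 to 120716213 in the knockdown. Levels are given as CPM, the count scaled to the library total, and 3 counts, taken as the limit of detection, correspond to 0.0249 to 0.0536 CPM. Of the 144 member values, 2 were under 10 counts, HOXA5 with 8 and HOXB2 with 9, both in shEVI1-2532 at day 3. EVI1, listed as MECOM, stood at 42.4 and 44.2 CPM in NTC, at 12.3 and 18.5 CPM with shEVI1-2531 and at 4.51 and 4.03 CPM with shEVI1-2532 (day 3, day 6). Myeloid progenitor markers fitted the label of the line, with 9 or 10 of 10 at 10 counts or more in every library, whereas erythroid markers summed to at most 0.282 CPM and the 6 epithelial markers summed to 10.4 to 32.2 CPM, with KRT8 and KRT18 alone at 10 counts or more. The difference between scaling to library totals and TMM scaling was largest in the late and the knockdown libraries: the median of all tested genes lay at -0.27 log2 CPM in talazoparib against DMSO at 48 h and at -0.31 in shEVI1-2532 against NTC at day 6. Single-library ratios below are on the CPM scale and include these shifts, and fitted log2 fold changes are on the TMM scale.

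Per exonic kilobase, HOXA9 was the most abundant member in the 6 control libraries (untreated, DMSO and NTC), with a median of 10.5 CPM per kb (range 6.10 to 13.9, which just met that of the next gene). HOXA10 followed at 4.49 (3.32 to 6.22), HOXB4 at 4.19 (3.14 to 5.52) and PBX3 at 3.62 (2.96 to 4.72), and these 3 ranges overlapped. HOXB2 stood at 2.09 (1.48 to 4.57), HOXA5 at 1.72 (1.05 to 2.61) and MEIS1 at 1.196 (0.842 to 1.69), again with overlapping ranges. HOXB3, at 0.460 (0.378 to 0.711), and HOXA7, at 0.207 (0.134 to 0.354), were lowest, and neither range met that of the gene above it. Within each of the 6 libraries HOXA9 was above HOXA10, MEIS1 above HOXB3 and HOXB3 above HOXA7, whereas HOXA10 was above HOXB4 in 4 of 6. The exon lengths are unions over all annotated transcripts, whether or not MUTZ-3 uses them. They include bases shared with other genes on the same strand. With those bases left out of the length, HOXA9 was lowest at 7.25 CPM per kb (untreated) and HOXA10 highest at 6.91 (NTC at day 6). Their ranges then no longer met, and HOXB4 came before HOXA10 by median.

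The controls themselves differed. From 0 h to DMSO at 48 h, HOXA9 went from 18.5 to 42.1 CPM, passing 25.0 at 12 h and 34.9 at 24 h. HOXB2 measured 8.77 CPM untreated and 3.47, 3.797 and 4.95 CPM in DMSO at 12, 24 and 48 h, so it was lower in every DMSO library than in untreated cells but higher in DMSO at 48 h than at 12 h (log2 ratio 0.51, interval 0.26 to 0.77). Time and vehicle cannot be told apart between untreated and DMSO. From NTC at day 3 to NTC at day 6 all 9 members were higher, from 130% of the day 3 level for PBX3 to 264% for HOXA7. Their median log2 CPM ratio was 0.66, beside 0.17 for all genes in that pair, and 1 library stands on each side.

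The first question was how PARPi changed the HOX program. At 12 h the members' log2 CPM ratios to DMSO lay between -0.38 (HOXA9 with talazoparib) and 0.60 (HOXA7 with olaparib). At 48 h all 9 members were below DMSO of the same hour with both inhibitors, 4 of them below 50% of DMSO with olaparib and 8 with talazoparib. Among all 17218 tested genes, 11.2% were below 50% of DMSO with olaparib and 20.8% with talazoparib at that hour. Between 24 and 48 h MECOM went from 40.8 and 31.4 CPM (olaparib, talazoparib) to 21.0 and 8.54 CPM.

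HOXA9, the leading HOXA gene of AML, measured 25.0, 34.9 and 42.1 CPM in DMSO at 12, 24 and 48 h. With olaparib it measured 24.8, 26.3 and 18.8 CPM, and with talazoparib 19.3, 23.5 and 15.4 CPM. The inhibitor libraries thus did not follow the increase in DMSO, and at 48 h they stood at 44.6% (olaparib) and 36.5% (talazoparib) of it. HOXA10, its neighbour, measured 15.2, 16.9 and 17.7 CPM in DMSO, 14.4, 13.1 and 10.3 CPM with olaparib and 13.95, 12.8 and 10.3 CPM with talazoparib. Both inhibitors left HOXA10 at 58.1% of DMSO at 48 h.

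HOXA5 measured 3.17, 3.01 and 2.86 CPM in DMSO at 12, 24 and 48 h. With olaparib it measured 2.73, 1.72 and 1.096 CPM, and with talazoparib 2.67, 2.09 and 0.750 CPM. At 24 h its log2 ratio to DMSO was -0.81 (95% counting interval -1.14 to -0.47) with olaparib and -0.53 (-0.86 to -0.20) with talazoparib. HOXA9 (-0.41 and -0.57), HOXA10 (-0.37 and -0.40) and PBX3 (-0.19 and -0.42) were the other members whose intervals lay below 0 with both inhibitors at that hour. HOXA7, with 12 to 52 counts in the PARPi libraries, had counting intervals that included 0 in 5 of its 6 ratios to DMSO, and at 48 h with talazoparib it stood at -1.27 (-2.36 to -0.28).

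In the HOXB cluster, HOXB2 measured 3.47, 3.797 and 4.95 CPM in DMSO at 12, 24 and 48 h. It stayed near DMSO through 24 h with olaparib (3.38 and 3.89 CPM) and talazoparib (3.33 and 3.33 CPM), and then measured 1.78 and 0.875 CPM at 48 h. At 35.9% and 17.7% of DMSO this was the lowest member at 48 h with both inhibitors. HOXB4, a gene that expands blood stem cells when overexpressed, measured 16.05, 15.4 and 14.9 CPM in DMSO, 16.8, 15.4 and 7.18 CPM with olaparib and 17.4, 12.9 and 7.29 CPM with talazoparib. HOXB3 measured 3.73, 2.82 and 3.31 CPM in DMSO, 3.06, 3.21 and 2.31 CPM with olaparib and 3.23, 2.14 and 1.48 CPM with talazoparib.

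The cofactor MEIS1 measured 12.5, 13.6 and 18.5 CPM in DMSO at 12, 24 and 48 h. With olaparib it measured 11.9, 12.4 and 11.0 CPM, and with talazoparib 14.6, 13.75 and 7.86 CPM. The DMSO library of 48 h was thus higher than those of 12 and 24 h, while the olaparib values stayed within 11.0 to 12.4 CPM. PBX3 measured 15.6, 16.4 and 17.55 CPM in DMSO, 15.9, 14.3 and 8.79 CPM with olaparib and 15.5, 12.2 and 6.55 CPM with talazoparib, so that DMSO and inhibitor libraries parted at each later hour.

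**Figure D1:**
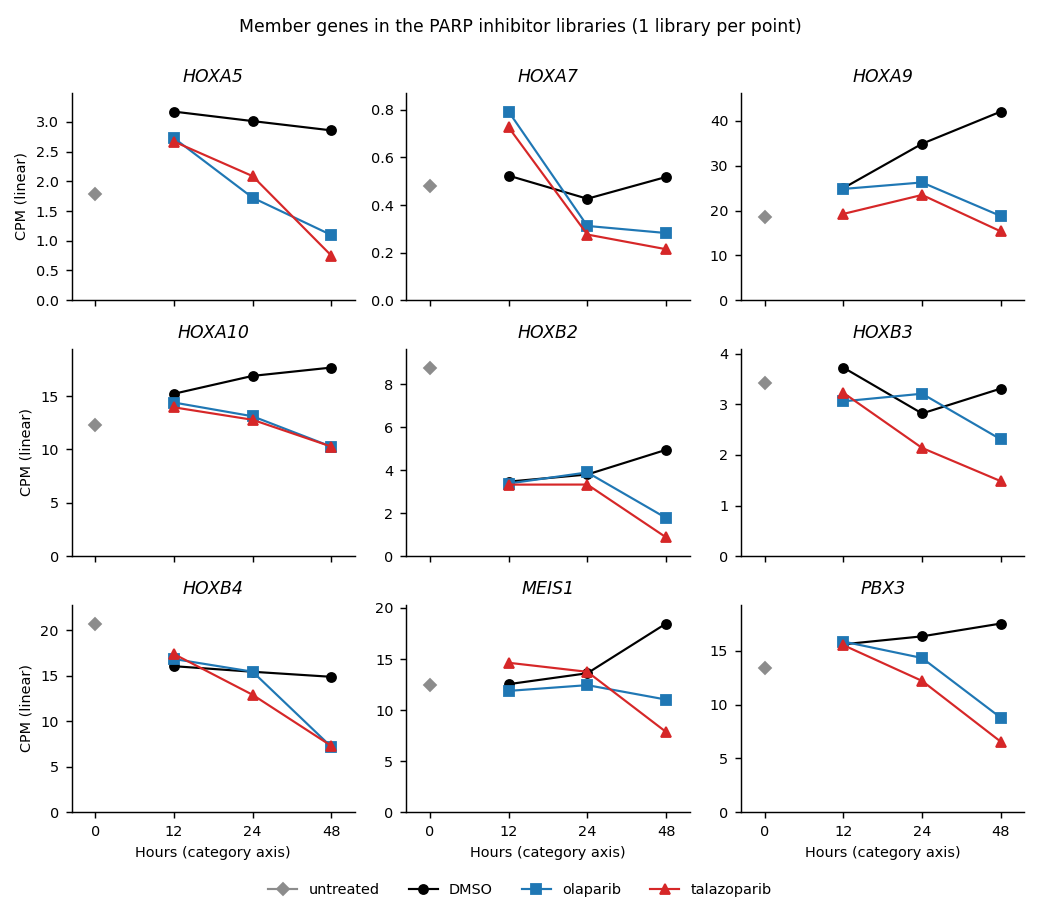
CPM of each member (linear axis from 0, 1 library per point) against hours (category axis) in untreated, DMSO, olaparib and talazoparib libraries. At 48 h both inhibitor points lie below the DMSO point in all 9 panels, and at 12 h they lie close to it in most.

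Averaged over the 3 hours and both inhibitors, no member passed the test of the mean PARPi effect (edgeR quasi-likelihood, adjusted p under 0.05), although all 9 estimates were negative, with a median of -0.35 beside -0.01 for all genes tested. Of all genes tested, 1.01% were called lower and 3.16% higher. The smallest adjusted p values were those of HOXA9 (log2 fold change -0.60, SE 0.16, adjusted p = 0.0572), HOXA5 (-0.76, SE 0.23, adjusted p = 0.0703) and HOXA10 (-0.35, SE 0.11, adjusted p = 0.0799). Before adjustment, 4 members were under 0.05, the fourth being PBX3 (-0.44, SE 0.18). By p, PBX3 ranked 5342 of the 17218 genes tested, so an unadjusted p under 0.05 was common among all genes as well. DESeq2 on the same design, and edgeR without the filter on low counts, each called 2 members lower, and 4 were called without the DMSO library of 12 h. Those settings also called more of all genes lower: 1596, 1671 and 2193, in place of 174.

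The change of the PARPi effect with time was tested as a slope, in log2 fold change per doubling of hours. By this test 6 of 9 members fell, against 9.82% of all genes that were called lower and 10.0% called higher. The steepest was HOXB2 (-0.84, SE 0.18, edgeR adjusted p = 5.946e-05). PBX3 (-0.50, SE 0.14, adjusted p = 0.00338), HOXA9 (-0.45, SE 0.13, adjusted p = 0.00671) and HOXB4 (-0.46, SE 0.14, adjusted p = 0.00864) followed. MEIS1 (-0.42, SE 0.14, adjusted p = 0.0174) and HOXA5 (-0.59, SE 0.20, adjusted p = 0.0215) passed as well. HOXA7 (-0.71, SE 0.33), HOXA10 (-0.23, SE 0.14) and HOXB3 (-0.19, SE 0.19) did not pass. The median slope of the members was -0.46, beside -0.01 for all genes, and MECOM had a slope of -0.94 (SE 0.13). The model has 2 residual degrees of freedom and took its error from all genes together, and without the DMSO library of 48 h no member passed (1 passed without olaparib or talazoparib at 48 h or without DMSO at 12 h, and 2 without olaparib at 12 h). The count of all genes with a falling slope went from 1691 to 39 without DMSO at 48 h, to 557 and 825 without olaparib and talazoparib at 48 h, to 991 without DMSO at 12 h and to 922 without olaparib at 12 h. DESeq2 did not call HOXA5 (-0.58, adjusted p = 0.1206) or MEIS1 (-0.41, adjusted p = 0.0537).

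Olaparib and talazoparib, 2 PARP inhibitors given here at 1 dose each, were compared over the 3 matched hours. The doses differ by design, and no member differed between the inhibitors (edgeR adjusted p over all genes from 0.9524 to 0.9947 among the 9 members). No gene of the 17218 was called either way (0% lower and 0% higher), while 354 had an unadjusted p under 0.05 and DESeq2 called 1 lower. The interval of the difference leaves room for moderate effects: for HOXB2 the talazoparib minus olaparib difference was -0.28 (95% interval -1.15 to 0.58), for HOXB3 -0.33 (-0.79 to 0.13), for HOXA9 -0.23 (-0.66 to 0.19) and for MEIS1 0.06 (-0.43 to 0.55). HOXA10 had the narrowest interval, at 0.01 (-0.30 to 0.32). At 48 h alone, by counting error only, HOXB2 with talazoparib was at 49.2% of olaparib (log2 ratio -1.02, interval -1.54 to -0.52). HOXB3 at 64.2% and HOXA9 at 81.8% also had intervals below 0, while HOXA10 and HOXB4 were at 100% and 102%. By these ratios 7 of the 9 members were lower with talazoparib at 48 h. The members' median log2 CPM ratio was -0.42, beside -0.09 for all genes.

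The second question was how the members changed when EVI1 was depleted. With shEVI1-2531 all 9 members fell, and with shEVI1-2532 8 of 9 fell, HOXA10 being the exception. The largest losses were those of HOXB2 and HOXA5 with both shRNAs, and MEIS1 was next with shEVI1-2532. Among all 18606 tested genes, 7.90% were called lower and 9.49% higher with shEVI1-2531, and 19.9% lower and 21.2% higher with shEVI1-2532. The median log2 fold change of the members was -1.56 with shEVI1-2531 and -1.30 with shEVI1-2532, beside 0.01 and 0.00 for all genes. Both comparisons use the same NTC libraries.

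HOXB2 measured 4.81 CPM at day 3 and 10.7 CPM at day 6 in NTC. It measured 0.806 and 0.569 CPM with shEVI1-2531 and 0.0897 and 0.109 CPM (9 and 11 counts) with shEVI1-2532. Neither shRNA met NTC at either day, and shEVI1-2532 left 1.02% of NTC at day 6. The log2 fold change was -3.23 (SE 0.36, edgeR adjusted p = 0.000129) with shEVI1-2531 and -5.91 (SE 0.44, adjusted p = 1.44e-06) with shEVI1-2532.

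HOXA5 measured 2.23 CPM at day 3 and 4.45 CPM at day 6 in NTC. It measured 0.607 and 0.429 CPM with shEVI1-2531 and 0.0798 and 0.139 CPM (8 and 14 counts) with shEVI1-2532. Every shRNA library stood at 27.2% of its NTC or lower. The log2 fold change was -2.44 (SE 0.37, adjusted p = 0.000911) with shEVI1-2531 and -4.58 (SE 0.44, adjusted p = 7.84e-06) with shEVI1-2532.

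MEIS1 measured 9.21 and 16.4 CPM in NTC at day 3 and day 6. It measured 5.51 and 5.77 CPM with shEVI1-2531 and 1.80 and 1.42 CPM with shEVI1-2532. The order NTC, shEVI1-2531, shEVI1-2532 was the same at both days and was also the order of MECOM. The log2 fold change was -0.99 (SE 0.25, adjusted p = 0.0173) with shEVI1-2531 and -2.65 (SE 0.27, adjusted p = 1.205e-05) with shEVI1-2532.

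HOXA9 showed the opposite order of the shRNAs. It measured 28.7 and 38.1 CPM in NTC, 9.30 and 9.21 CPM with shEVI1-2531 and 13.1 and 13.2 CPM with shEVI1-2532 (day 3, day 6). The groups did not overlap, and the lower level was that of the shRNA that left more MECOM. The log2 fold change was -1.67 (SE 0.18, adjusted p = 9.538e-05) with shEVI1-2531 and -1.03 (SE 0.18, adjusted p = 0.000591) with shEVI1-2532.

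HOXA10 measured 16.4 and 23.1 CPM in NTC, 7.80 and 8.03 CPM with shEVI1-2531 and 16.8 and 17.3 CPM with shEVI1-2532. It therefore stood at 103% of NTC at day 3 and at 74.9% at day 6 with shEVI1-2532, against 47.6% and 34.8% with shEVI1-2531. The log2 fold change was -1.13 (SE 0.18, adjusted p = 0.0013) with shEVI1-2531 and 0.11 (SE 0.18, adjusted p = 0.6599) with shEVI1-2532, and the sign of the latter turned with scaling to library totals (-0.19) and without the NTC library of day 3 (-0.15).

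The other 4 members moved by similar amounts with either shRNA. HOXB4 measured 11.8 and 18.7 CPM in NTC, 5.05 and 7.01 CPM with shEVI1-2531 and 4.62 and 5.10 CPM with shEVI1-2532. HOXB3 measured 3.44 and 5.30 CPM in NTC, 1.02 and 1.63 CPM with shEVI1-2531 and 1.13 and 1.86 CPM with shEVI1-2532. The shRNA libraries of both genes lay below both NTC libraries, with log2 fold changes of -1.15 (SE 0.19) and -1.31 (SE 0.19) for HOXB4 and of -1.56 (SE 0.24) and -1.26 (SE 0.24) for HOXB3 (shEVI1-2531, shEVI1-2532). PBX3 measured 16.5 and 21.4 CPM in NTC, 7.75 and 11.2 CPM with shEVI1-2531 and 11.1 and 9.27 CPM with shEVI1-2532, and its log2 fold changes were the smallest of the members called with both shRNAs (-0.83, SE 0.20, and -0.57, SE 0.20). HOXA7 measured 0.323 and 0.852 CPM in NTC (39 and 93 counts) and between 0.126 and 0.199 CPM (12 to 20 counts) in the 4 shRNA libraries, with log2 fold changes of -1.71 (SE 0.45) and -1.30 (SE 0.45). Without the NTC library of day 6 the calls of HOXA7 (-1.14 and -0.77) and PBX3 (-0.71 and -0.47) with both shRNAs and of MEIS1 with shEVI1-2531 (-0.47) were lost. HOXA7 was also lost without the day 6 library of the shRNA tested (-1.39 and -0.96), and so were PBX3 with shEVI1-2532 without its day 6 library (-0.28) and PBX3 with shEVI1-2531 without its day 3 library (-0.63).

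**Figure D2:**
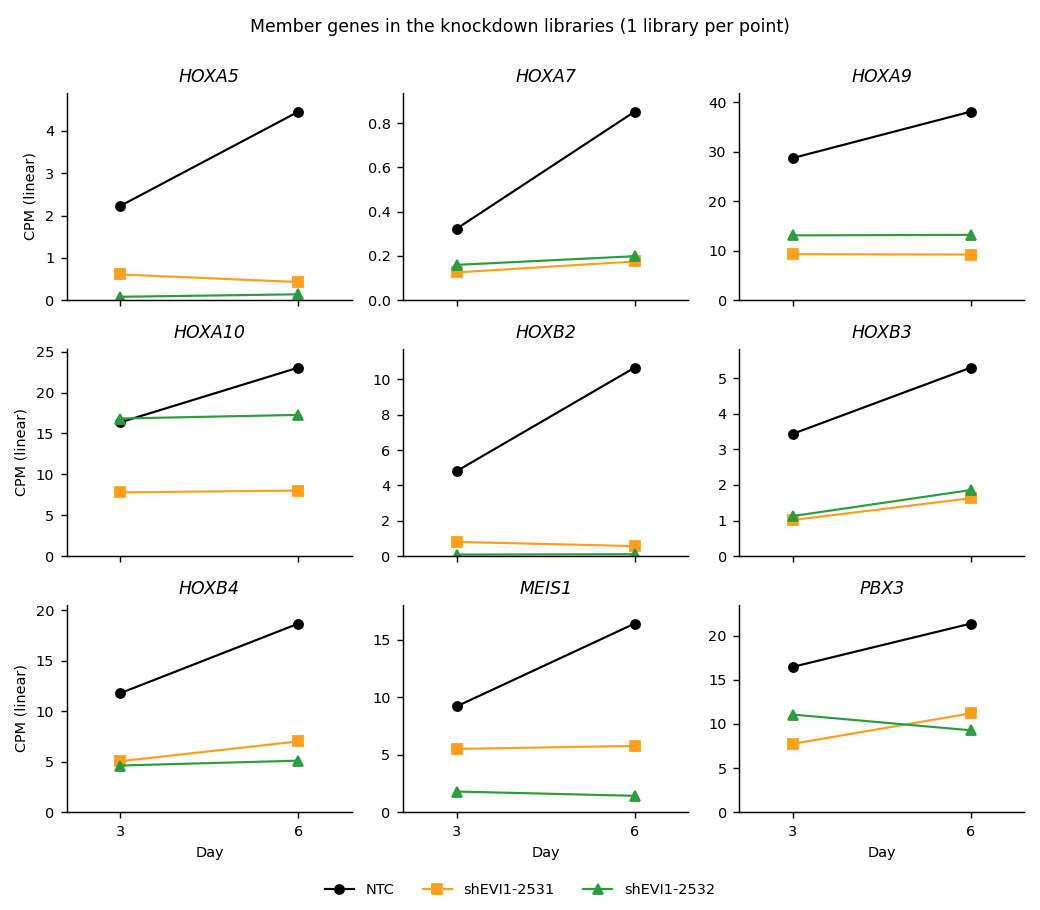
CPM of each member (linear axis from 0, 1 library per point) at day 3 and day 6 with NTC, shEVI1-2531 and shEVI1-2532. The NTC point at day 6 is the highest in all 9 panels, shEVI1-2532 is lowest for HOXA5, HOXB2 and MEIS1, and for HOXA9 and HOXA10 it lies above shEVI1-2531.

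At day 3, 8 members were below 50% of NTC with shEVI1-2531 and 7 with shEVI1-2532, against 14.6% and 21.2% of all tested genes (CPM scale). At day 6 it was 8 with either shRNA, against 10.7% and 22.0% of all tested genes. With both shRNAs fitted as 1 group the same direction was seen, but only HOXB4 (log2 fold change -1.23, edgeR adjusted p = 0.0448) and HOXB3 (-1.40, adjusted p = 0.0499), members at which the shRNAs lay close together, passed the threshold. That fit called few genes at all, 150 lower and 158 higher of the 18606 tested.

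**Figure D3:**
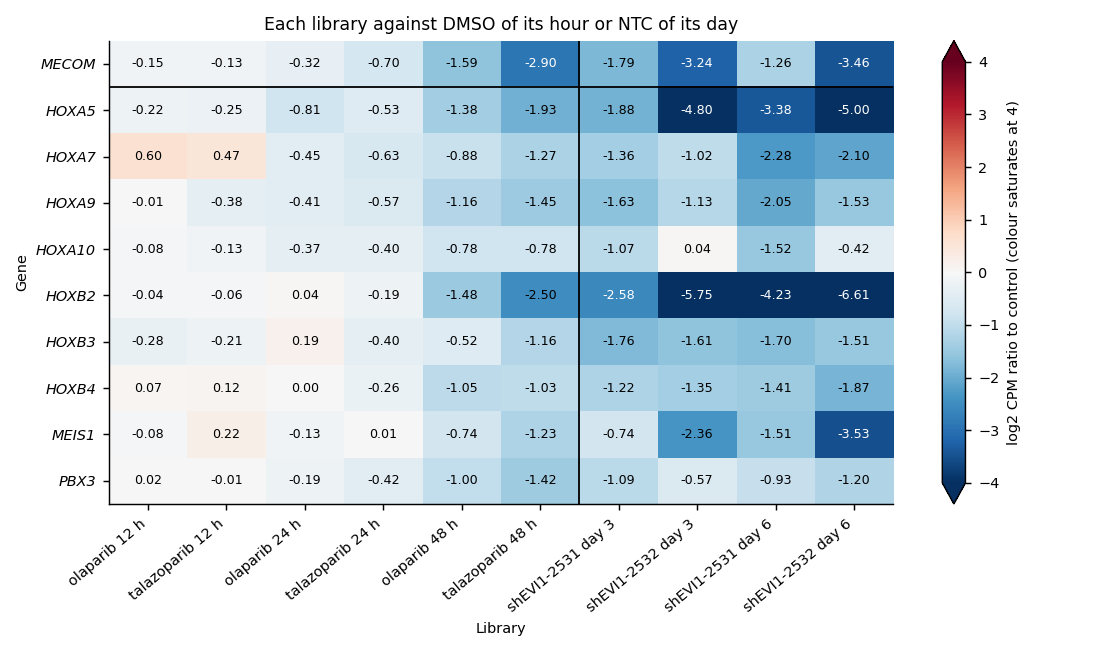
log2 CPM ratio of each library to DMSO of its hour or NTC of its day, for MECOM (top row) and the 9 members; blue is lower, red is higher and colour saturates at 4. At 48 h of PARPi and in the shRNA libraries every cell is negative apart from HOXA10 in shEVI1-2532 at day 3 (0.04); the coefficient fitted over both days changes sign with the scaling (0.11 with TMM, -0.19 with library totals).

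The difference between the shRNAs was tested itself, and 5 of 9 members passed. HOXB2 (log2 difference -2.68, SE 0.45, edgeR adjusted p = 0.00136), HOXA5 (-2.14, SE 0.45, adjusted p = 0.00524) and MEIS1 (-1.67, SE 0.26, adjusted p = 0.000818) were lower with shEVI1-2532, and so was MECOM (-1.70, SE 0.20, adjusted p = 0.000138). HOXA10 (1.24, SE 0.18, adjusted p = 0.000562) and HOXA9 (0.64, SE 0.18, adjusted p = 0.0206) were higher. HOXA7, HOXB3, HOXB4 and PBX3 lay between -0.16 and 0.41 and did not pass. Of all genes tested, 12.0% were called lower and 12.2% higher with shEVI1-2532 than with shEVI1-2531. With scaling to library totals HOXA10 was the only member called higher, and the call of HOXA9 was also lost without either shEVI1-2532 library or without shEVI1-2531 at day 6 (0.47 to 0.69).

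Of the 14 other HOXA and HOXB genes, 8 could be tested in the knockdown, and 5 of them fell with either shRNA. The share of all genes called lower was 7.90% with shEVI1-2531 and 19.9% with shEVI1-2532. HOXA3 went from 92 and 230 counts in NTC to 10 and 30 with shEVI1-2531 and 13 and 7 with shEVI1-2532, and HOXA6 from 113 and 195 to 13 and 15 and to 8 and 8. HOXA4, with 11 and 18 counts in NTC, had 1 and 0 with shEVI1-2531 and 2 and 0 with shEVI1-2532. HOXA4 reached 10 counts in the NTC libraries alone and so entered the test through them. A fall was thus the only call open to HOXA4, and its call adds no support. Beyond HOXA10, HOXA11 fell by 0.88 (SE 0.19) and 0.64 (SE 0.19) on the log2 scale with shEVI1-2532 and shEVI1-2531.

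In the HOXB cluster HOXB5 fell with both shRNAs (log2 fold change -3.59, SE 0.37, and -3.13, SE 0.36, for shEVI1-2531 and shEVI1-2532), whereas its neighbour HOXB6 was at -0.02 (SE 0.25) with shEVI1-2531 and rose with shEVI1-2532 (0.76, SE 0.25, adjusted p = 0.0274). By CPM as well, HOXB6 (3.61 and 5.53 in NTC, 4.43 and 8.33 with shEVI1-2532) was higher at both days. After PARPi, HOXA3, HOXA6, HOXA13 and HOXB5 had falling slopes over time (4 of the 7 genes tested), and HOXB6 had a rising one (0.64, SE 0.16, adjusted p = 0.000788). Falling slopes were called in 9.82% of all genes and rising ones in 10.0%. HOXB6 counts went from 333 in DMSO to 613 with olaparib and 585 with talazoparib at 48 h. HOXB1, HOXB8 and HOXB13 had at most 1 count in any library, and of the 18 HOXC and HOXD genes only HOXC6 and HOXC10 could be tested, none of them with a call.

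**Figure D4:**
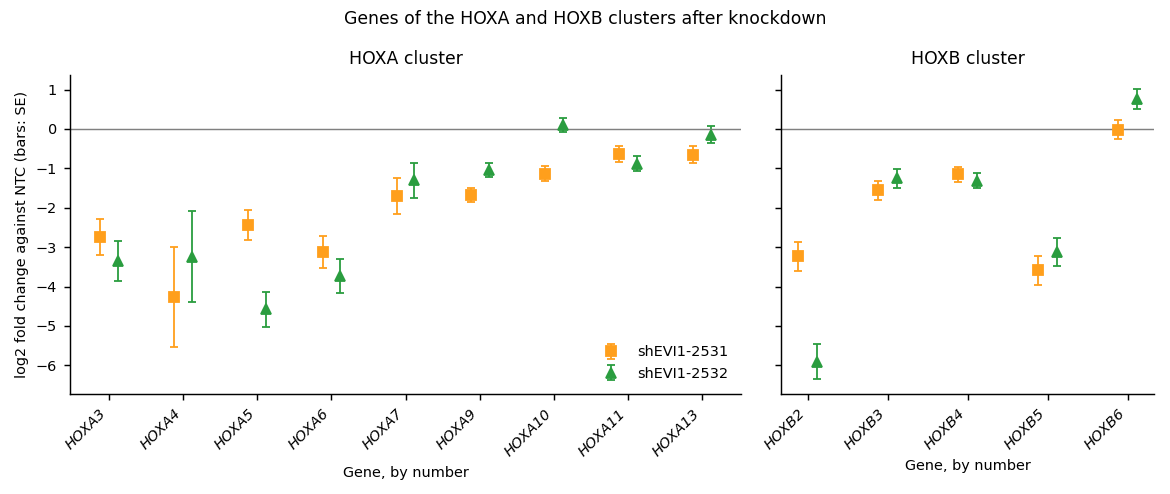
log2 fold change against NTC with its SE (edgeR, TMM scale) for genes of the HOXA and HOXB clusters, in order of gene number, with shEVI1-2531 and shEVI1-2532. HOXA3 to HOXA6, HOXB2 and HOXB5 lie lowest with both shRNAs, and HOXA10 and HOXB6 lie above 0 with shEVI1-2532, HOXA10 only on this scale (-0.19 with scaling to library totals).

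Of the 8 antisense and other long noncoding RNAs of the clusters that could be tested, 3 fell with shEVI1-2532 and 3 with shEVI1-2531, and the median was -0.26 and -0.90. Among all genes tested, 19.9% fell with shEVI1-2532 and 7.90% with shEVI1-2531. HOXA10-AS, which overlaps HOXA9 and HOXA10, fell with both (log2 fold change -2.60, SE 0.30, with shEVI1-2532 and -2.07, SE 0.29, with shEVI1-2531), also where HOXA10 did not. HOXB-AS1, beside HOXB2, went from 29 and 54 counts in NTC to 5 and 1 with shEVI1-2531 and to 0 in both shEVI1-2532 libraries, at least 8.03-fold lower at day 3 and at least 16.6-fold lower at day 6 (against 3 counts per library). In the knockdown HOXB-AS1 reached 10 counts in the NTC libraries alone, so a fall was the only call open to it. With HOXB-AS1 at its bound the median of the list was still -0.26. HOTAIRM1 and HOTTIP, at opposite ends of the HOXA cluster, did not pass with either shRNA.

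Among the 7 tested TALE cofactors outside the members, MEIS3 rose where MEIS1 fell, from 234 and 336 counts in NTC to 443 and 699 with shEVI1-2531 and 492 and 731 with shEVI1-2532 (log2 fold change 1.29, SE 0.21, and 1.59, SE 0.21). MEIS3 also rose on average with PARPi (1.87, SE 0.33, adjusted p = 0.0335), with 73 counts in DMSO and 307 and 490 with olaparib and talazoparib at 48 h. PBX2 fell with shEVI1-2532 (-1.13, SE 0.14) and was at -0.01 (SE 0.13) with shEVI1-2531, a difference that passed the test between the shRNAs (adjusted p = 0.000163). TGIF1, a TALE repressor, rose with shEVI1-2532 (0.80, SE 0.16) and TGIF2 fell (-0.67, SE 0.16). PKNOX2 had at most 2 counts in any library.

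Complexes of MLL and DOT1L keep HOX genes active and Polycomb complexes keep them silent. Of 13 genes of the MLL and DOT1L complexes, 7 fell with shEVI1-2532, 4 with shEVI1-2531 and none rose (medians -0.41 and -0.11), and MLLT3 (-1.51 and -0.97) and PSIP1 (-1.19 and -0.90) fell with both. Of 16 Polycomb genes and antagonists, 5 fell and 2 rose with shEVI1-2532, and 2 fell with shEVI1-2531. Of all genes, 19.9% fell and 21.2% rose with shEVI1-2532, and 7.90% fell and 9.49% rose with shEVI1-2531. CBX2 fell (-1.48, SE 0.16) and CBX7 rose (2.46, SE 0.27) with shEVI1-2532, and EZH2 fell (-0.97). With PARPi, 2 of the 13 activators (PSIP1 and WDR5) and 2 of the 16 Polycomb genes (EZH2 and CBX2) fell over time, and KDM6B, a demethylase that opposes Polycomb, rose, where 9.82% and 10.0% of all genes were called lower and higher.

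Of 13 genes named in the field as targets of HOXA9 and MEIS1, all could be tested in the knockdown. With shEVI1-2532, 7 fell and 3 rose (median -0.56), and with shEVI1-2531, 5 fell and 3 rose (median -0.50), where 19.9% and 21.2% of all genes fell and rose with shEVI1-2532 and 7.90% and 9.49% with shEVI1-2531. CD34, a stem cell antigen, fell most with shEVI1-2532 (-6.78, and -2.43 with shEVI1-2531). ERG, a stem cell transcription factor, fell more than CD34 with shEVI1-2531 (-3.73, and -5.91 with shEVI1-2532). ID2, an inhibitor of basic helix-loop-helix factors, rose with both (2.40 and 2.32), and so did LMO2 (1.25 and 0.76). With PARPi, 5 of 12 fell over time, again ERG (-1.18, SE 0.14) and CD34 (-0.83, SE 0.13) most, and ID2 (1.61, SE 0.14) and LMO2 (0.36, SE 0.13) rose. The shares of all genes called lower and higher over time were 9.82% and 10.0%. CD34 is also among the progenitor markers.

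Markers of other cell types and of cell division also moved. The 12 monocyte markers summed to 1142 to 1478 CPM in DMSO and to 8916 and 14118 CPM with olaparib and talazoparib at 48 h. They summed to 1304 to 1585 CPM in NTC, 2662 to 2912 CPM with shEVI1-2531 and 8719 to 9269 CPM with shEVI1-2532. The number at 10 counts or more was 9 of 12 in DMSO and 8 of 12 in NTC and was 11 or 12 in the 48 h inhibitor and shRNA libraries, while CD163 was at 0 in NTC at day 3. LYZ, S100A8 and S100A9 held most of these monocyte sums. CSF1R was lower at 48 h, with 15379 counts in DMSO and 9702 and 8849 with olaparib and talazoparib. With shEVI1-2531 CSF1R had 8892 and 21655 counts and with shEVI1-2532 19089 and 17950, beside 15411 and 29420 in NTC (day 3, day 6). At day 3 VCAN had 617 counts in NTC, 248 with shEVI1-2531 and 257 with shEVI1-2532, and at day 6 770, 812 and 1085. The 10 proliferation markers summed to 2606 to 3039 CPM in DMSO and to 1091 and 405 CPM at 48 h of olaparib and talazoparib, and to 1905 to 2026 CPM in NTC, 1248 to 1303 CPM with shEVI1-2531 and 677 to 709 CPM with shEVI1-2532. The 5 megakaryocyte markers summed to 87.6 to 109 CPM in DMSO and to 216 and 234 CPM at 48 h of olaparib and talazoparib, and to 82.3 and 188 CPM in NTC (day 3, day 6), 114 and 149 CPM with shEVI1-2531 and 31.6 and 55.1 CPM with shEVI1-2532. The 5 T-cell markers summed to 8.15 and 11.5 CPM in NTC and to 2.07 to 3.87 CPM in the shRNA libraries, and the epithelial sum was 10.4 and 16.7 CPM in NTC and 29.9 to 32.2 CPM with shEVI1-2532. The 5 B-cell markers summed to 16.8 and 29.1 CPM in NTC and to 11.6 to 15.3 CPM in the shRNA libraries. The progenitor sum was 5134 and 5935 CPM in NTC, 4668 and 7219 with shEVI1-2531 and 3425 and 5111 with shEVI1-2532 (day 3, day 6). It was 3854 to 4655 CPM in DMSO and 3045 and 2909 CPM at 48 h of olaparib and talazoparib. MPO was the largest part of this sum in the knockdown, and single markers went different ways. At day 6 MPO had 352888 counts in NTC, 582436 with shEVI1-2531 and 274808 with shEVI1-2532. In the same order CD34 had 83487, 9556 and 339, and CEBPA had 10001, 18266 and 13124. Fewer cells that express a member and less of its RNA per cell cannot be told apart in these bulk libraries, and the part of these shifts in the members' values was not tested. Between the shRNAs, the monocyte sum was higher with shEVI1-2532, where HOXB2, HOXA5 and MEIS1 were lower and HOXA9 and HOXA10 were higher than with shEVI1-2531.

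The likeness of each member's pattern to that of other genes was described as Pearson's r of log2 CPM over the 16 libraries, centred within each experiment, with candidates limited to a mean log2 CPM over 3. These libraries share their controls and a common time course, so r is a description only. HOXA5 and HOXB2 were most like each other among the members (r = 0.947), and SVOPL and ARID5B were among the 3 genes most like each of them (SVOPL: r = 0.972 and 0.987). MEIS1 was most like MDFI (0.976), CD34 (0.974) and RNF220 (0.965). HOXB4 was most like CARMIL2 (0.986), C3orf80 and CCDC6, and HOXB3 most like SETD2 (0.957), ATP8B2 and LPIN1. PBX3 was most like RFC1 (0.978), DCAF16 and SLFN11, and HOXA9 most like AP3M2 (0.934), CNTRL and CD200. HOXA10 had the weakest nearest gene, NOB1 (0.917), before MLC1 and GYPC, and its r with MEIS1 was 0.152, the lowest among pairs of members. For HOXA7, with few counts, the nearest were SMARCA2 (0.922), HDAC7 and RFTN1.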

How the data were processed

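The authors deposited, for each of the 16 libraries (TruSeq Stranded mRNA, polyadenylated RNA), raw counts per gene and TPM. Per the labels, the submitters' processing notes name STAR, Picard and featureCounts and the build GRCh38, while versions, annotation and strand setting are not given in the sources used here. The deposited TPM are scaled by each gene's genomic span with its introns, so they were not used, and levels were set per exonic kilobase of GENCODE 29, whose spans of HOXA5, HOXA9, HOXA10 and HOXB4 differ from those in the files. The shEVI1-2531 files carry another number in their names, and their identity rests on the sample labels.

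A gene was tested if 3 of 9 PARPi or 2 of 6 knockdown libraries reached 10 counts (9 of 9 members in both) with TMM scaling and the quasi-likelihood test of edgeR 4.0.16 in R 4.3.3, with Benjamini-Hochberg adjustment over all genes and a threshold of 0.05. The models held the time point or day as a factor and each inhibitor or shRNA as a coefficient, leaving 4 (mean effect) and 2 (slope on log2 hours, knockdown) residual degrees of freedom. For the slope the error was shared by all genes (infinite prior degrees of freedom), and in the other fits only in part. Ratios of single libraries are CPM ratios with an exact conditional binomial 95% interval, which covers counting error only. A floor of 3 counts was taken as the limit of detection. DESeq2 1.42.0 was an alternative. On simulated data with the PARPi mean effect, 93% of genes changed by 1 log2 unit and 100% of those changed by 2 were recovered, over 16938 genes, and with shEVI1-2532 75% and 100% over 18087 genes. In each of these simulations 9 unchanged genes were called. Genes with few counts were not among those changed, and the simulated effect was the same at every hour or day. The rates therefore do not cover HOXA7 or effects that grow with time.

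All 9 members are named whatever their values. Other genes come from fixed lists and are named where they passed a test, at most 4 per list and comparison in order of p, apart from HOX and TALE genes, which may be named with their levels. The nearest genes in pattern are the 3 with the highest r. The members and lists were chosen with earlier results of these data known. Motifs and homeobox bases were found with Python 3.11.15. Some genes and sequences are not reported here.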

Additional observations from a re-analysis of the deposited data

Results flagged for a closer look

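In 5 members the effect of shEVI1-2532 differed from that of shEVI1-2531 by the test of the difference itself (edgeR, adjusted p under 0.05 over all genes). The log2 difference, shEVI1-2532 minus shEVI1-2531, was -2.68 for HOXB2, -2.14 for HOXA5 and -1.67 for MEIS1, all 3 lower with shEVI1-2532 at both days. It was 1.24 for HOXA10 and 0.64 for HOXA9, both higher with shEVI1-2532 at both days. The groups hold 2 libraries each, 1 per day, and the reason for the opposite directions was not tested.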

How the results depend on the processing

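The labels give no replicate numbers by which libraries could be paired, and the hour or day was a factor in every fit. For the mean PARPi effect, 2 members were called lower by DESeq2, 2 without the filter on low counts and 3 with the 12 h libraries left out, and leaving out 1 library gave 0 to 4 (4 without DMSO at 12 h, 1 without talazoparib at 12 h). Over all genes this test called 174 lower and 544 higher, 1596 and 1842 by DESeq2, 1671 and 2057 without the filter, 81 lower with library totals, 1703 and 2065 without 12 h, 0 and 0 without 24 h, and 397 and 842 without 48 h. For the slope over time, leaving out 1 library gave 0 to 6 members called lower (39 to 1919 of all genes). Library totals gave 1091 genes with a rising slope, 5957 lower and 2360 higher genes with shEVI1-2532, and 2270 lower and 1049 higher genes with shEVI1-2531. Between the shRNAs 1 member was called higher with library totals, and 1 to 2 without 1 library (1 without either shEVI1-2532 library or without shEVI1-2531 at day 6). With TMM scaling of the single ratios, 7 PARPi values lay below 50% of DMSO in place of 12. No value whose counting interval left out 0 changed sign. Values near 0 did, among them HOXA9 with olaparib at 12 h (-0.010 by CPM, 0.0060 by TMM). HOXB4 with olaparib at 24 h did as well (0.00063 by CPM, -0.023 by TMM). DESeq2 did not call HOXA7 with either shRNA (adjusted p = 0.1381 and 0.0694).

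Signs turned as follows. The mean PARPi effect without 48 h was 0.061 for HOXA7 and 0.014 for MEIS1, and over single libraries left out it ran from -0.69 to 0.046 for HOXA7 and from -0.41 to 0.0073 for MEIS1. Talazoparib minus olaparib for HOXA10 was -0.028 with library totals, and without 1 library the difference ran from -0.18 to 0.24 for HOXA5, -0.46 to 0.077 for HOXA7, -0.058 to 0.10 for HOXA10, -0.57 to 0.092 for HOXB2, -0.19 to 0.086 for HOXB4, -0.13 to 0.32 for MEIS1 and -0.35 to 0.0063 for PBX3. The slope of HOXB3 ran from -0.52 to 0.14. HOXA10 with shEVI1-2532 was -0.19 with library totals and ran from -0.15 to 0.33. The difference between the shRNAs ran from -0.32 to 0.0094 for HOXB4 and from -0.050 to 0.56 for PBX3. The causes were not tested. With 1 library per condition, counting error limits HOXA7 throughout and HOXA5 and HOXB2 with shEVI1-2532.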
